A study of Mus musculus with 13 samples.

Results

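Distal daughter cells are CD8+ T cells taken 2 days after infection, at the first division of the response, and the comparison here sets them against naive cells that had met no antigen. All 48 columns of single cells headed as distal and all 149 headed as naive were used, of 1449 cells in the series, across 95 assay rows for 94 genes. Both populations were OT-1 CD8+ T cells, transgenic for a receptor that recognises ovalbumin, on the C57BL/6J strain and from spleen. Naive cells were unactivated (day 0), and distal cells came from mice given recombinant Listeria monocytogenes that makes ovalbumin. For cells of the first division the design text gives 2000000 dye-labelled OT-1 cells, transferred before the infection, and recovery at 48 hours. It does not say whether this holds for the distal cells, and their gate, number of mice, arrays and ages are likewise not given by the labels. Antibodies to CD8 and CD44 were in the sorting panel, so Cd8a and Cd44 may reflect the sort.

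When a naive CD8+ T cell meets antigen it leaves its resting state, turns on growth genes and the high-affinity receptor for interleukin-2, and shuts down genes that keep resting cells moving between blood and lymph nodes. The first division can be asymmetric: the daughter formed next to the antigen-presenting cell is called proximal and the other distal, and the distal daughter has been linked with the memory fate. Known markers of the resting state include the transcription factors Tcf7, Lef1 and Klf2, the interleukin-7 receptor Il7r and the chemokine receptor Ccr7, while Myc, Il2ra and Irf4 are early marks of activation.

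Each population is 1 sample. Cells are not replicates of a condition, so no test was possible, no p-value is given, and results are described by size. A gene was found in a cell when its deposited value was above 0, and a share of cells is followed by its exact (Clopper-Pearson) 95% interval, which covers counting error only. Where no cell had a value above 0, the share that 3 cells would give is stated as the upper limit, 6.25% for distal and 2.01% for naive cells. The values themselves are in log2 cycles and were read as 40 minus Ct, so a larger value means more transcript. Values of different genes are not compared, because assays differ in efficiency.

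The number of assays above 0 was alike in both populations, with a median of 12 per cell, but it spread more widely in distal cells (3 to 27) than in naive cells (7 to 20). The lymphocyte antigen gene Ptprc, which encodes CD45, was above 0 in 85.4% of distal cells (72.2 to 93.9%) and 94.0% of naive cells (88.8 to 97.2%). The coreceptor gene Cd8a was found in 37.5% (24 to 52.6%) and 41.6% (33.6 to 50.0%), and the T cell antigen gene Thy1 in 18.8% and 19.5%. Among markers of other T cells, Cd4 was found in 0 of 48 distal cells and Foxp3 in 0 of 48, and Gata3 in 2 of 48. No marker of B or myeloid cells was among the assays.

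Some genes of activation were found in more distal than naive cells, and some genes of the resting state in fewer. By share of cells, 5 of 94 genes (5.32%) were at least 20 percentage points higher in distal cells: Myc, Il2ra, Irf4, Zfp281 and Xcl1. A further 3 of 94 (3.19%) were at least 20 points lower, Klf2 and Il7r among them. Over all genes the median difference was 0 points, with 35 genes higher by any amount, 36 lower and 23 equal, 20 of which were in no cell of either population. Each population was also split by column order into its earlier and later columns, since values step along the file. Between these parts 5 genes differed by at least 20 points within naive cells (74 and 75 cells) and 6 within distal cells (24 and 24 cells). The 8 genes of the comparison are to be read against these numbers. The match is not exact, because the parts hold fewer cells than the populations. Counting error alone gives gaps of 20 points more easily between them, most of all between the distal parts.

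**Figure D1:**
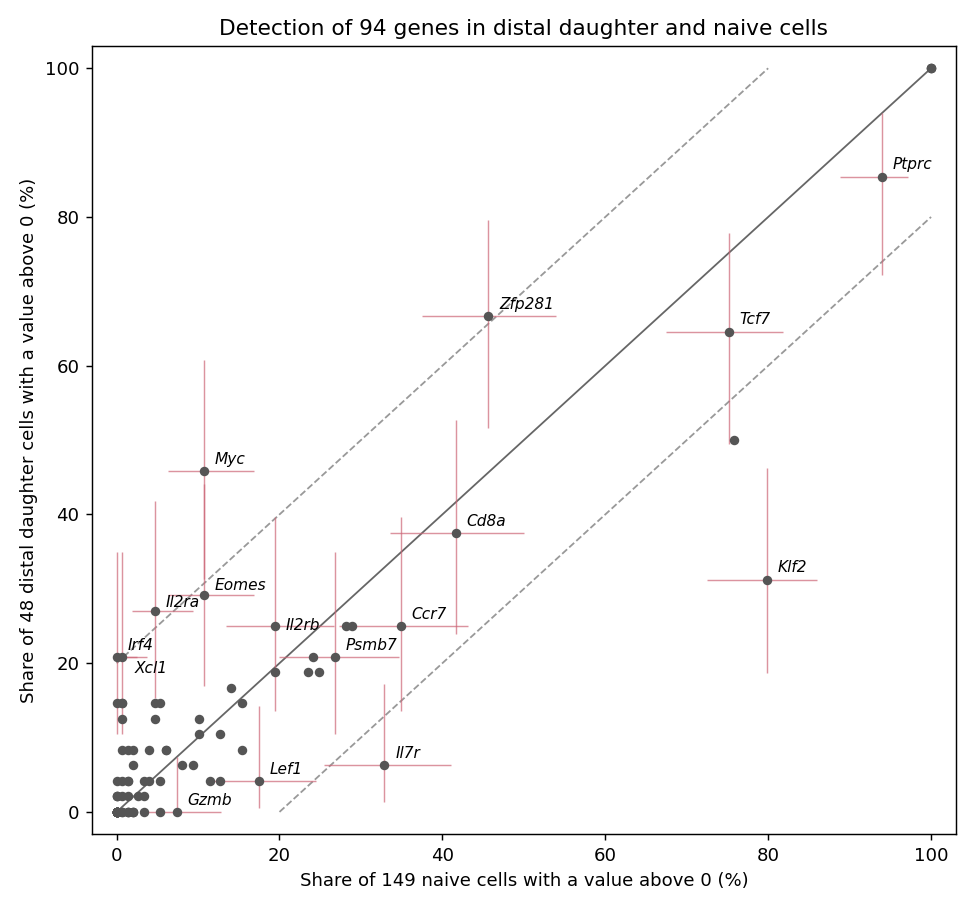
Share of 149 naive cells (horizontal axis, %) and of 48 distal daughter cells (vertical axis, %) with a value above 0, 1 point per gene. The solid line marks equal shares, dashed lines 20 points of difference, and bars the exact 95% intervals of the genes named. Myc lies farthest above the band and Klf2 farthest below it.

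Of the early activation and growth genes, 2 of 9 measured members were at least 20 points higher in distal cells and 0 were lower, against 5 and 3 of 94 genes. The median difference of the list was 5.54 points, against 0 over all genes. Myc, a transcription factor that drives growth and entry into the cell cycle, was above 0 in 22 of 48 distal cells (45.8%, 31.4 to 60.8%) and 16 of 149 naive cells (10.7%, 6.26 to 16.9%). In the cells that had it, the lowest, median and highest values were 14.3, 16.5 and 17.6 in distal cells and 12.4, 14.6 and 15.7 in naive cells. Myc was therefore both more frequent and higher where present, and its share differed by 26.8 to 43.3 points over the 4 pairings of earlier and later columns. Il2ra encodes the alpha chain that gives the interleukin-2 receptor its high affinity. Its transcript was in 13 of 48 distal cells (27.1%, 15.3 to 41.8%) and 7 of 149 naive cells (4.70%, 1.91 to 9.44%), at median values of 15.5 and 14.5. Its share was 16.7% in the earlier and 37.5% in the later distal columns, and the difference from naive ran from 8.56 to 36.2 points over the pairings.

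The other members of this list were closer. Il2rb, the beta chain shared by the interleukin-2 and interleukin-15 receptors, was found in 25% of distal cells (13.6 to 39.6%) and 19.5% of naive cells (13.4 to 26.7%), intervals that overlap. Cd69, an early activation antigen that holds cells in lymphoid tissue, was above 0 in 7 of 48 (14.6%, 6.07 to 27.8%) and 8 of 149 (5.37%, 2.35 to 10.3%). The costimulatory receptor gene Tnfrsf9, which encodes 4-1BB, was found in 4 of 48 (8.33%) and 2 of 149 (1.34%). Growth signalling genes showed little: the kinase Mtor was found in 8.33% and 6.04% of cells, and the glycolytic enzyme gene Hk2 in 1 of 48 and 0 of 149. Hk2 was rare in all 13 populations, at most 3.61% in proximal cells, so its low share here says little. The cytokine gene Il2 and the adhesion receptor gene Cd44 were found in no cell of either population, and both rows of the Il2 assay stood at 0. Cd44 did not exceed 7.14% in any population, the highest being unsorted day 5 cells.

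Among the effector transcription factors 1 of 8 measured members was at least 20 points higher in distal cells and 0 were lower, with a median difference of 0.37 points. Over all genes 5 of 94 (5.32%) were as much higher and 3 of 94 (3.19%) as much lower, so a count of 1 in a short list says little. Irf4, which translates the strength of receptor signalling into expansion, was found in 10 of 48 distal cells (20.8%, 10.5 to 35.0%) and in 0 of 149 naive cells (up to 2.01%). Its values in distal cells ran from 13.0 to 16.1 with a median of 15.3. The Irf4 share was 12.5% in the earlier and 29.2% in the later distal columns, so the difference was under 20 points in the earlier ones. The related factor Irf8 was found in 7 of 48 (14.6%, 6.07 to 27.8%) and 0 of 149 (up to 2.01%), with a median value of 15.3. Both genes were thus present in a minority of distal cells and in no naive cell.

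Eomes, a T-box factor of effector and memory cells, was found in 14 of 48 distal cells (29.2%, 17 to 44.1%) and 16 of 149 naive cells (10.7%, 6.26 to 16.9%). Its lowest, median and highest values were 15.5, 17.5 and 19.8 in distal cells and 13.1, 14.9 and 17.3 in naive cells. The difference in share, 18.4 points, fell just short of 20. Rela, a subunit of NF-kappaB, was found in 25% and 28.2% of cells. The terminal effector factor Zeb2 was above 0 in 1 of 48 and 2 of 149 cells, Id2 in 0 of 48 and 3 of 149, and Tbx21 and Prdm1 in no cell of either population. Tbx21 did not exceed 3.80% in any of the 13 populations, so its absence here says little.

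Some chemokine genes were found in more distal than naive cells, while genes of killing were at or near 0 in distal cells. Of 11 measured chemokine and cytotoxic effector genes, 1 was at least 20 points higher, 0 were lower, and the median difference was 0 points. The count is near the share over all genes, 5 of 94 higher (5.32%) and 3 of 94 lower (3.19%). Xcl1 encodes a chemokine that attracts cross-presenting dendritic cells. It was found in 10 of 48 distal cells (20.8%, 10.5 to 35.0%) and 1 of 149 naive cells (0.671%, 0.0170 to 3.68%), and its share was 20.8% in both the earlier and the later distal columns. Ccl4, a chemokine that attracts lymphocytes and monocytes, was found in 7 of 48 (14.6%, 6.07 to 27.8%) and 1 of 149 (0.671%), with a distal median value of 17.1. Of the 10 distal cells with Xcl1, 4 also had Ccl4, against 3 of the 38 without it. Cxcl10 was found in 4 of 48 and 1 of 149 cells, and the cytokine gene Ifng in 2 of 48 and 1 of 149.

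Gzmb, the gene of the killing protease granzyme B, was found in 0 of 48 distal cells (up to 6.25%) and 11 of 149 naive cells (7.38%, 3.74 to 12.8%). The distal limit lies below the naive share but within its interval, so a difference is not settled at this number of cells. The naive share of Gzmb was 12.2% in the earlier and 2.67% in the later columns. Ccl5 was found in 0 of 48 and 2 of 149 cells, and Ccl3, Klrc1, Klrg1 and Serpinb9 in no cell of either population. Lgals1, encoding galectin-1, was found in 12.5% of distal cells (4.73 to 25.2%) and 4.70% of naive cells (1.91 to 9.44%), at median values of 10.8 and 10.2. These are low values: with only those above 12 counted as detected, the Lgals1 difference went from 7.80 to 3.50 points.

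**Figure D2:**
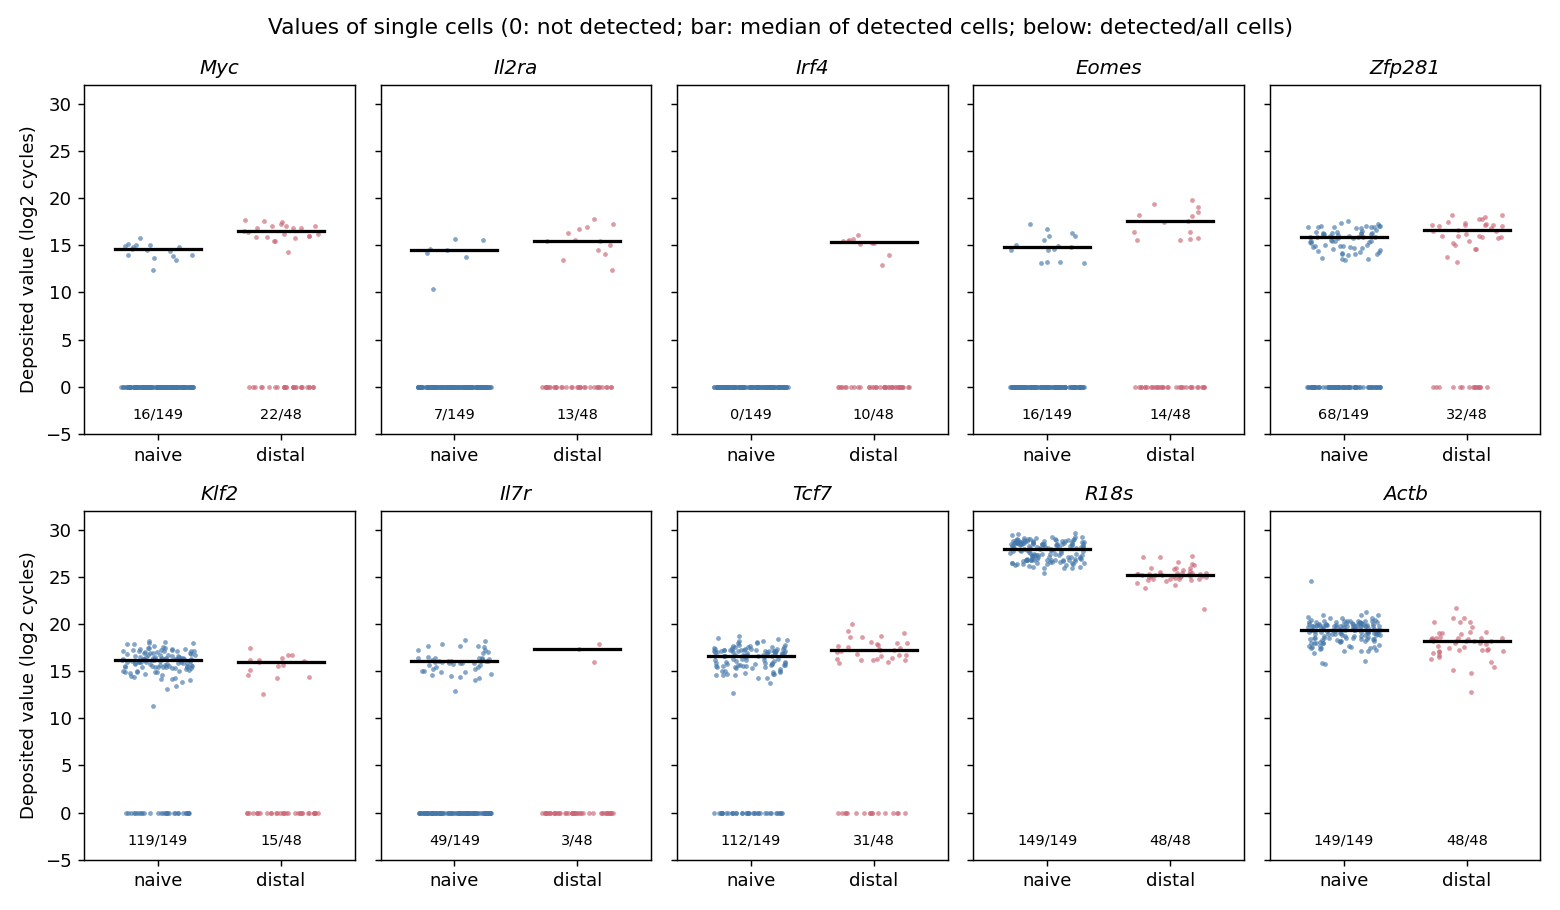
Values of single cells (log2 cycles, 0 for no detection) for 10 genes in 149 naive and 48 distal daughter cells, 1 point per cell. The bar is the median of detected cells and the fraction below gives detected and all cells. Irf4 was above 0 in 10 of 48 distal cells and 0 of 149 naive cells, and Klf2 in 15 of 48 and 119 of 149, while the values of R18s as a whole lay lower in distal cells.

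Of the naive and memory transcription factors, 1 of 10 measured members was at least 20 points lower in distal cells and 0 were higher, with a median difference of -4.30 points. Over all genes 3 of 94 (3.19%) were as much lower and 5 of 94 (5.32%) as much higher. Klf2 keeps lymphocytes quiescent and recirculating. This gene was above 0 in 15 of 48 distal cells (31.2%, 18.7 to 46.3%) and 119 of 149 naive cells (79.9%, 72.5 to 86.0%), the largest difference of any gene in share (-48.6 points). Where Klf2 was present its values were alike, with a lowest, median and highest of 12.6, 16 and 17.5 in distal cells and 11.2, 16.2 and 18.2 in naive cells. The difference was thus one of how many cells had the transcript, and it ran from -50.8 to -46.4 points over the pairings of columns. The Klf2 share of distal cells was also the lowest of the 13 populations, next to 34.7% in first-division cells and below the highest, 93.5% in unsorted day 5 cells; the distal interval holds the first-division share.

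Tcf7, the factor that maintains naive and memory T cells, was still found in most distal cells, 31 of 48 (64.6%, 49.5 to 77.8%), against 112 of 149 naive cells (75.2%, 67.4 to 81.9%). Its lowest, median and highest values were 15.9, 17.2 and 20.0 in distal cells and 12.6, 16.6 and 18.7 in naive cells. Both intervals overlap, and the share was 75% in the earlier and 54.2% in the later distal columns. Lef1, its partner in the same family, was found in 2 of 48 distal cells (4.17%, 0.509 to 14.3%) and 26 of 149 naive cells (17.4%, 11.7 to 24.5%). The naive share of Lef1 was 6.76% in earlier and 28% in later columns, so its difference ran from -2.59 to -23.8 points.

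The forkhead factors and their neighbours stayed close to naive. Foxo1, which sustains Klf2 and Il7r in resting cells, was found in 18.8% of distal cells (8.95 to 32.6%) and 23.5% of naive cells (16.9 to 31.1%). Foxp1, a factor of quiescence, was found in 25% (13.6 to 39.6%) and 28.9% (21.7 to 36.8%), and Foxo3 in 6.25% and 8.05%. The E protein gene Tcf12 was found in 16.7% and 14.1%. Bcl11b, a T cell identity factor, was above 0 in 0 of 48 and 8 of 149 cells, Bcl6 in 2 of 48 and 0 of 149, and Id3 in 1 of 48 and 0 of 149.

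Of the 4 measured naive homing and survival receptors, 2 were at least 20 points lower in distal cells and 0 were higher, with a median difference of -17.9 points. Over all genes 3 of 94 (3.19%) were as much lower and 5 of 94 (5.32%) as much higher. Il7r, which receives the survival signal interleukin-7, was found in 3 of 48 distal cells (6.25%, 1.31 to 17.2%) and 49 of 149 naive cells (32.9%, 25.4 to 41.0%). The values in the 3 distal cells lay between 15.9 and 17.9, within the naive range of 12.9 to 18.3. The naive share of Il7r was 24.3% in earlier and 41.3% in later columns, and the difference ran from -37.2 to -16.0 points over the pairings, short of 20 points against the earlier naive columns. Ccr7, which guides cells into lymph nodes, was found in 12 of 48 (25%, 13.6 to 39.6%) and 52 of 149 (34.9%, 27.3 to 43.1%), and its intervals overlap. The costimulatory receptor gene Cd28 was found in 10.4% (3.47 to 22.7%) and 12.8% (7.86 to 19.2%). The distal share of Ccr7 was 37.5% in earlier and 12.5% in later columns, so that its difference from naive ran from -23.5 to 3.72 points over the pairings. With only values above 12 counted as detected, the Ccr7 difference was -1.31 points.

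Zfp281, a zinc finger repressor studied mostly in stem cells, was the only member of the 3 measured repressors and chromatin genes at least 20 points apart. Its transcript was in 32 of 48 distal cells (66.7%, 51.6 to 79.6%) and 68 of 149 naive cells (45.6%, 37.5 to 54.0%), at median values of 16.6 and 15.9. Its intervals overlap, and its share also moved within both populations, from 35.1 to 56.0% in the naive columns and from 54.2 to 79.2% in the distal ones. Between pairings of columns its difference ran from -1.83 to 44.0 points, so that the direction itself was not kept. Bmi1 was found in 8.33% and 4.03% of cells and Runx1 in 0 of 48 and 3 of 149.

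In the remaining groups no gene reached 20 points. Among 4 apoptosis genes, Bnip3l, a mitochondrial gene of the Bcl-2 family, was found in 4.17% of distal and 11.4% of naive cells, and the tumour necrosis factor receptor gene Tnfrsf1b in 8.33% and 2.01%. The distal values of Bnip3l, 9.90 to 10.5, all lay below 12. Among 7 signalling genes, Stat4 was found in 8.33% and 15.4%, and the kinase gene Mapk14 in 4.17% and 12.8%.

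The receptor gene Cxcr3, which draws effector cells towards interferon-induced chemokines, was found in 2 of 48 distal cells (4.17%, 0.509 to 14.3%) and 8 of 149 naive cells (5.37%, 2.35 to 10.3%). Of 3 inhibitory and exhaustion-linked genes, Pdcd1 and Lag3 were in no cell of either population, and the factor Tox was found in 14.6% and 15.4%.

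The height of the value in cells with the transcript could be compared for 17 genes with at least 10 such cells in each population. Of these, 5 of 17 (29.4%) had a median at least 1 cycle higher in distal cells and 3 of 17 (17.6%) a median at least 1 cycle lower, 1 cycle being a doubling of template at full efficiency. The higher ones were Psmb7, Eomes, Ccr7, Cd8a and Myc, and the lower ones were R18s, Gapdh and Actb. In naive cells the heights stepped along the file: between earlier and later naive columns, 17 of 30 genes with at least 5 detected cells in each part differed by at least 1 cycle, against 1 of 15 in distal cells. The medians are to be read against that.

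The proteasome subunit gene Psmb7 had a median of 15.7 in 10 distal cells and 12.5 in 40 naive cells, a difference of 3.20 cycles at similar shares (20.8 and 26.8%). Over the pairings of columns that difference ran from 0.30 to 3.68 cycles, since the naive median was 12.3 in the earlier and 14.9 in the later columns. Eomes differed by 2.65 cycles, from 0.17 to 3.36 over pairings. Ccr7 had medians of 14.5 and 12.3 (2.2 cycles, 1.1 to 3.71 over pairings, the later distal part holding 3 cells with it), and Cd8a of 17 and 15 (1.99 cycles, 1.72 to 2.17). Myc differed by 1.90 cycles (1.57 to 2.35). The values of Ccr7 and Cd8a thus stood higher in distal cells in each pairing, while their shares went either way, from -23.5 to 3.72 points for Ccr7 and from -21.7 to 13.5 points for Cd8a. The naive medians of Psmb7 and Ccr7 lay near 12, the limit used for the mean level below. With only values above 12 counted as detected, the difference in share went from -6.01 to 4.73 points for Psmb7. For Ccr7 it went from -9.90 to -1.31 points. How far such low naive values set the medians was not tested.

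The assays found in every cell went the other way. R18s, the 18S ribosomal RNA, had a lowest, median and highest value of 21.6, 25.2 and 27.2 in distal cells and 25.4, 28 and 29.6 in naive cells. Of 149 naive cells, 0 lay below the distal median, and 3 of 48 distal cells lay above the first quartile of naive cells. The median difference was -2.76 cycles, from -3.50 to -1.41 over pairings. Actb, a cytoskeletal gene, had medians of 18.2 and 19.3 (-1.11 cycles, -2.01 to -0.455 over pairings), and Gapdh, of glycolysis, 14 and 15.6 (-1.55 cycles, -2.33 to -0.49). The distal median of R18s was the lowest of the 13 populations, the next being 25.7 in effector memory cells, and so was that of Gapdh. Whether this reflects the arrays or the amount of RNA in the cells was not tested.

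**Figure D3:**
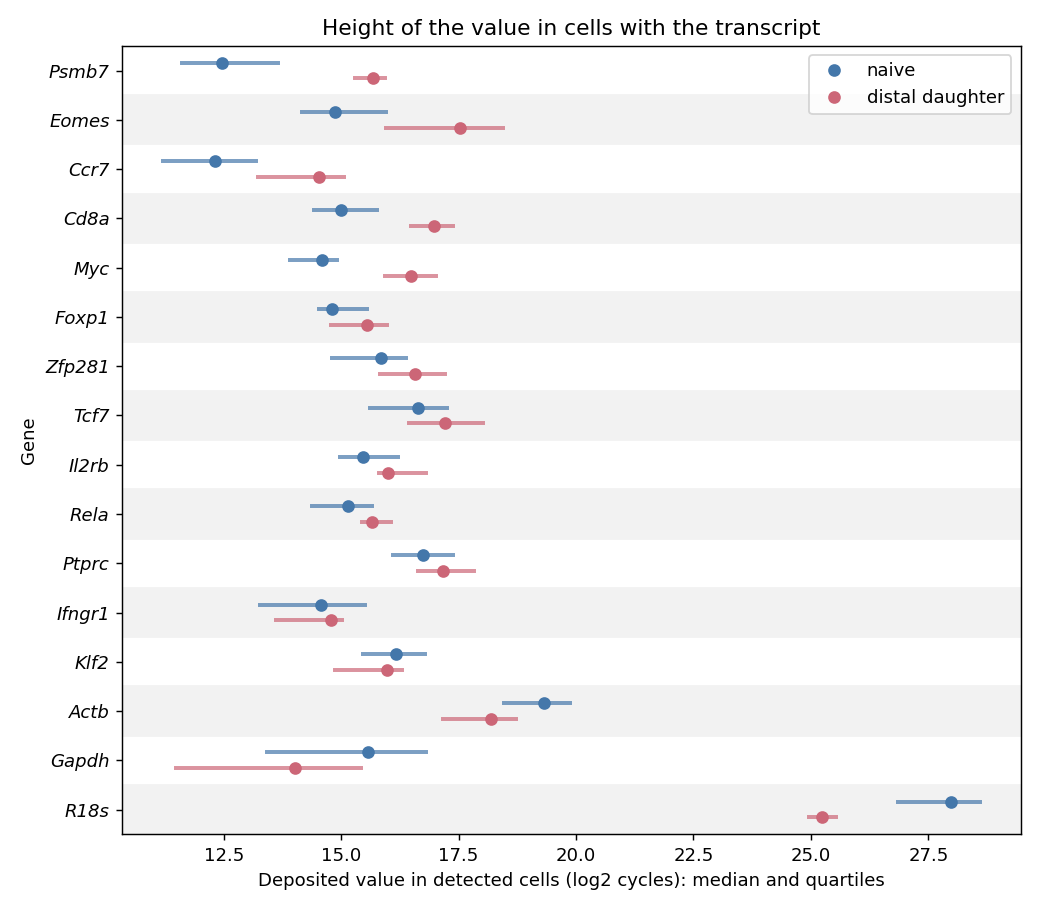
Median (point) and quartiles (line) of the value in detected cells, in log2 cycles, for 16 of the 17 genes with at least 10 detected cells in each population, ordered by the difference. Psmb7, Eomes, Ccr7, Cd8a and Myc stand higher in distal cells, while Actb, Gapdh and R18s stand lower.

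The mean level joins share and height: the deposited value minus 12, set to 0 below that limit and in undetected cells, averaged over all cells. By this measure Myc (1.77 cycles), Zfp281 (1.28) and Eomes (1.26) stood at least 1 cycle higher in distal cells, 3 of 94 genes (3.19%). Another 4 of 94 (4.26%) were at least 1 cycle lower, R18s (-2.52 cycles), Klf2 (-2.13), Gapdh (-1.23) and Actb (-1.17). With each cell centred on the mean of Actb and Gapdh there were 5 higher genes and 2 lower ones. With R18s and Actb as the centre these numbers were 10 and 1. Klf2 stayed lower by mean level under both (-1.72 and -1.62 cycles) and Myc higher (2.36 and 2.62). For the medians of detected cells the same centrings gave 14 of 17 higher with 1 lower, and 14 with 0, and moved the median of the 17 differences from 0.58 to 1.94 and 2.56 cycles. The Klf2 median turned from -0.20 to 1.00 and 1.86 cycles, and that of Actb to 0.25 and 0.74. Gapdh also changed sign under the second centring (-1.55, -0.25 and 0.11 cycles), and the other 14 genes kept their sign under both. The medians of Myc, Eomes, Ccr7, Cd8a and Psmb7 stayed at least 1 cycle higher in distal cells, and that of R18s was lower (-1.23 and -0.74 cycles). The genes used as a centre become mirror images of each other by construction. Actb and Gapdh stood at 0.25 and -0.25 cycles under the first centring, and Actb and R18s at 0.74 and -0.74 under the second. The signs of genes under their own centring are therefore not separate results.

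Single distal cells differed widely in how much of the activation programme they carried. Of the 17 measured activation and effector factor genes, distal cells had 0 to 8 above 0 with a median of 2 (mean 2.23 ± 2.195, SD over 48 cells), and naive cells 0 to 4 with a median of 1 (0.899 ± 0.844, SD over 149 cells). At least 5 of them were found in 9 of 48 distal cells (18.8%) and 0 of 149 naive cells (up to 2.01%). None was found in 13 of 48 distal cells (27.1%, 15.3 to 41.8%) and 54 of 149 naive cells (36.2%, 28.5 to 44.5%). At least 1 of Myc, Il2ra and Irf4 was found in 27 of 48 distal cells (56.2%, 41.2 to 70.5%) and 23 of 149 naive cells (15.4%, 10.04 to 22.3%), and all 3 in 4 distal cells and 0 naive cells.

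Of the 14 measured naive and memory genes, distal cells had 0 to 6 with a median of 3, and naive cells 0 to 8 with a median of 4. At least 3 of these were found in 26 of 48 distal cells (54.2%, 39.2 to 68.6%) and 132 of 149 naive cells (88.6%, 82.4 to 93.2%). Cells with at least 3 genes of each group numbered 6 of 48 distal (12.5%, 4.73 to 25.2%) and 4 of 149 naive (2.68%, 0.736 to 6.73%). A further 20 distal cells had at least 3 naive and memory genes only, 11 at least 3 activation genes only, and 11 neither. Across the 48 distal cells the numbers of the 2 groups had a Spearman rho of -0.19, and the number of activation genes and of all detected assays one of 0.68, which share the activation genes themselves.

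**Figure D4:**
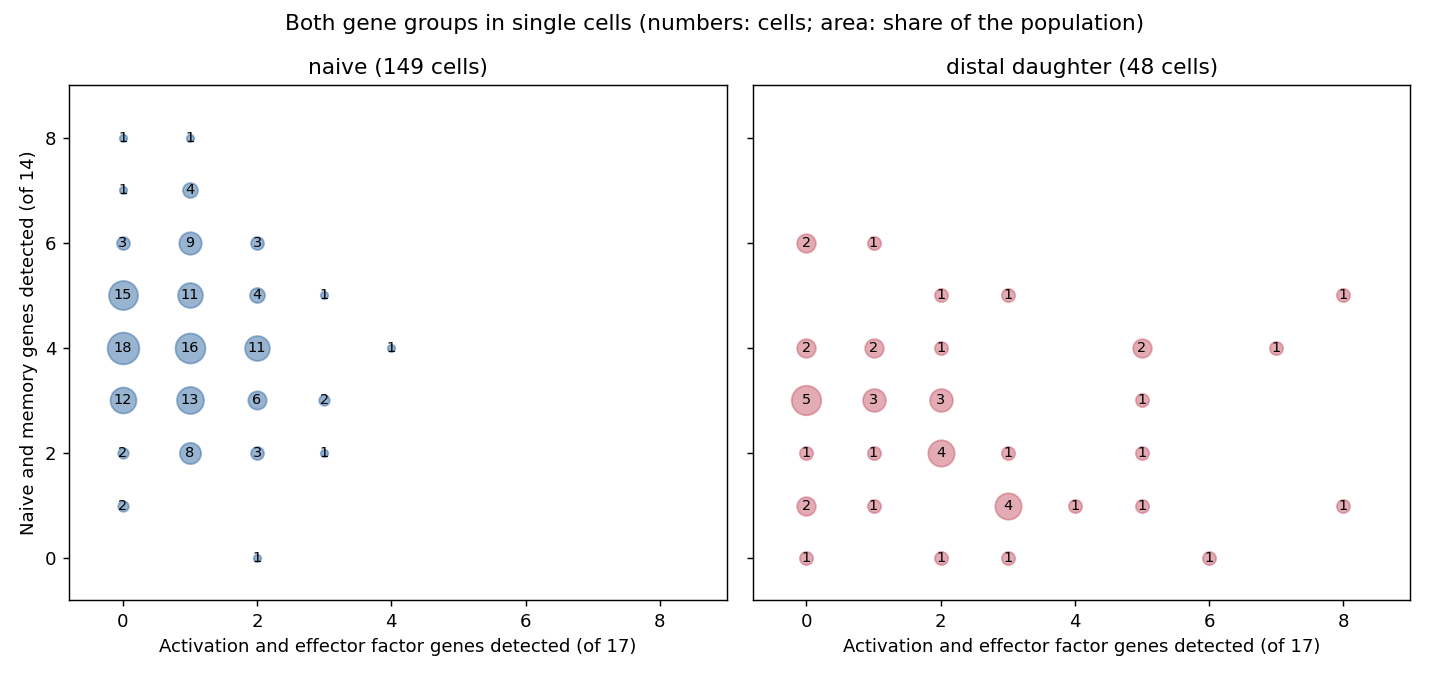
Number of activation and effector factor genes (horizontal axis, of 17) and of naive and memory genes (vertical axis, of 14) above 0 in single cells, for 149 naive and 48 distal daughter cells. Numbers give the cells at each position and the area their share of the population; distal cells reach 8 activation genes and naive cells 4.

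The share of distal cells with Klf2 was smaller where activation genes were above 0. Among 15 pairs of genes counted, it was above 0 in 3 of the 22 distal cells with Myc (13.6%, 2.91 to 34.9%) and 12 of the 26 without (46.2%, 26.6 to 66.6%). Its transcript was in 1 of the 13 with Il2ra and 14 of the 35 without, and in 0 of the 10 with Irf4 and 15 of the 38 without. Distal cells with Myc had more detected assays (median 14 against 11) and those with Klf2 fewer (11 against 13), while R18s was alike in cells with and without Myc (medians of 25.22 and 25.25). In naive cells Klf2 was found in 14 of the 16 with Myc and 105 of the 133 without.

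Tcf7 was above 0 in 11 of the 22 distal cells with Myc (50.0%, 28.2 to 71.8%) and 20 of the 26 without (76.9%, 56.4 to 91.0%), and in 5 of the 10 with Irf4. It was also found in 10 of the 14 distal cells with Eomes (71.4%, 41.9 to 91.6%). Klf2 and Tcf7 were found together in 9 of 48 distal cells (18.8%) and 88 of 149 naive cells (59.1%), and Tcf7 without Klf2 in 22 of 48 and 24 of 149. Some activation genes were found together. Irf4 was in 8 of the 22 distal cells with Myc and 2 of the 26 without, and in 6 of the 13 with Il2ra and 4 of the 35 without. Distal cells with Irf4 had a median of 16 detected assays against 11 without, and those with Il2ra 14 against 11. The later distal columns held 7 of the 10 cells with Irf4 and 9 of the 13 with Il2ra. The part of assay number and column order in these pairs was not tested. All 3 of the distal cells with Il7r also had Klf2.

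Each distal cell was assigned to whichever it resembled more, the detection profile of naive or of first-division cells over all 94 genes. Of 48 distal cells, 25 were nearer to naive (52.1%, 37.2 to 66.7%), against 148 of 149 naive cells (99.3%) and 40 of 144 first-division cells (27.8%, 20.6 to 35.8%), each judged with its own cell left out of the mean. First-division cells had more assays above 0, a median of 18 against 12, and the part of that difference in the assignment was not tested. Without Myc, Il2ra, Klf2 and Il7r 66.7% of distal cells (51.6 to 79.6%) were nearer to naive. These genes had been called different between the same distal and naive cells, so leaving them out favours naive by construction. The rise is therefore not a separate result. With only cells of at least 10 detected assays the share was 46.3% (30.7 to 62.6%).

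Set beside first-division and proximal cells, distal cells had similar shares with Klf2 and Il7r and smaller shares with genes of several lists. Klf2 was found in 31.2% of distal, 37.3% of proximal and 34.7% of first-division cells, and Il7r in 6.25%, 1.20% and 6.25%. Genes higher in distal than naive cells were also found in these populations. Myc was in 45.8% of distal and 61.4% of proximal cells, and Eomes in 29.2% and 48.2%. Irf4 was in 20.8% of distal and 38.9% of first-division cells. Zfp281 was found in 66.7% of distal, 75.9% of proximal and 65.3% of first-division cells. Xcl1 was found in 20.8%, 14.5% and 18.1%, and Ccl4 in 14.6%, 7.23% and 16.7%, with wide intervals. Il2rb, at 25% in distal cells, was found in 48.2% of proximal and 50.0% of first-division cells, and Lgals1 in 12.5%, 31.3% and 41.7%. Among resting genes, Ccr7 was found in 25%, 65.1% and 27.1%, and Tcf7 in 64.6%, 83.1% and 70.8%. Cxcr3 (4.17%, 48.2% and 27.1%) and Cd28 (10.4%, 54.2% and 39.6%) had distal intervals that hold the naive share, 5.37% and 12.8%. These populations share the naive cells as their control, differ in detected assays per cell (12, 18 and 18), and were not tested against each other.

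**Figure D5:**
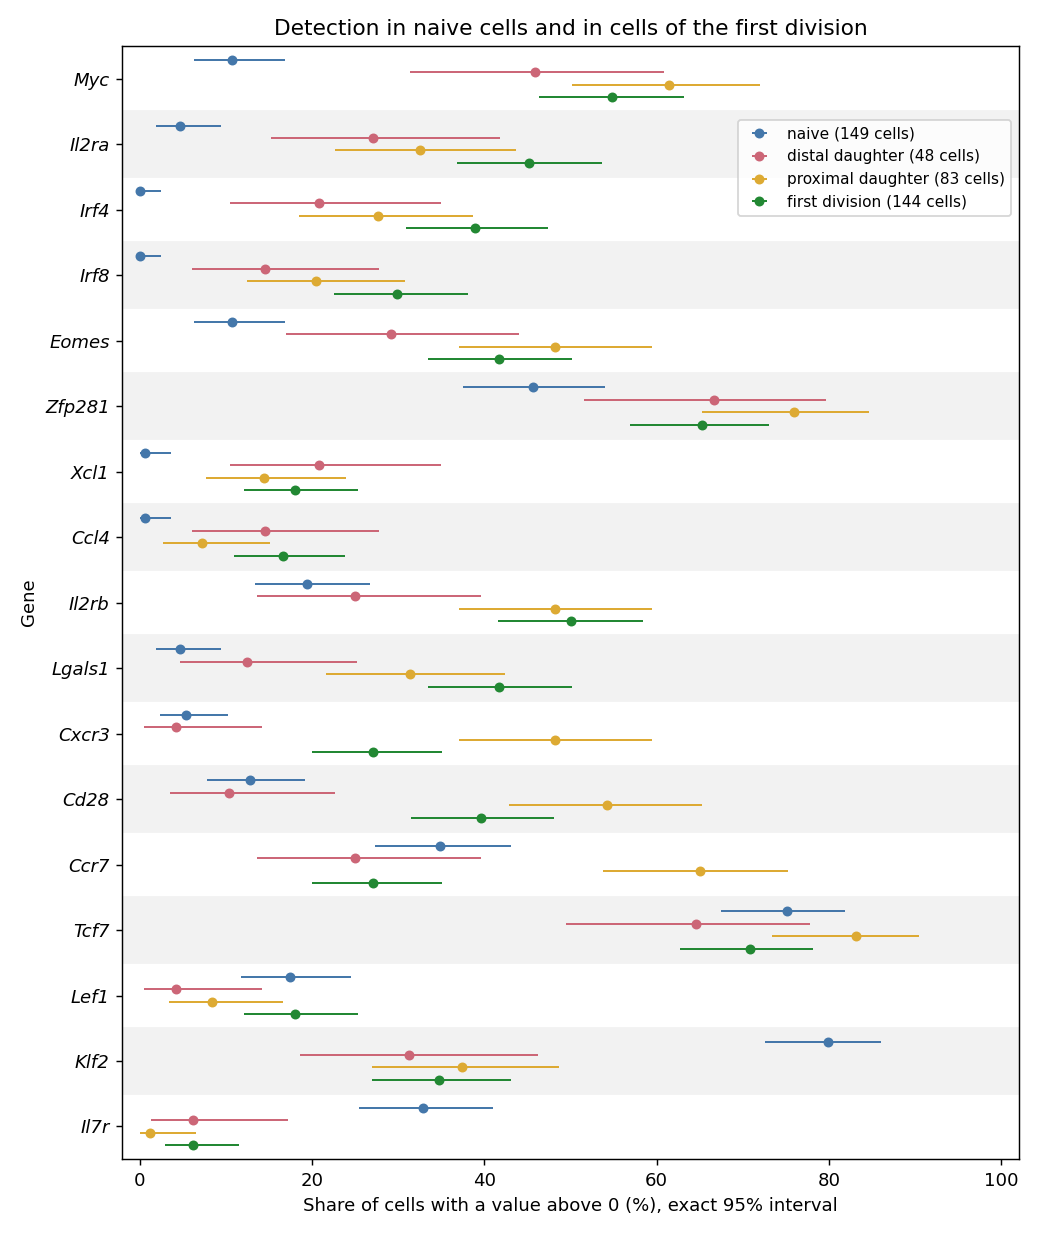
Share of cells with a value above 0 (horizontal axis, %) with exact 95% intervals for 17 genes in 149 naive, 48 distal, 83 proximal and 144 first-division cells. For Cxcr3, Cd28 and Il2rb the distal point lies near the naive one, and for Klf2 and Il7r it lies near those of the other dividing cells.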

How the data were processed

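Single cells sorted from mouse spleen were lysed, reverse transcribed and preamplified for 18 cycles with pooled TaqMan assays, diluted 5-fold and measured on Fluidigm arrays, per the labels' protocols. The authors deposited 1 table of log2 amounts on the scale of PCR cycles, which the labels call Ct and not normalized. The table holds 0 for no detection and its largest values for R18s, so the values grow with RNA; the offset of 40 is inferred. Columns are named by population alone, and each name matched 1 sample. Of 95 rows, 93 were matched by accession to RefSeq (GRCm38.p6), and Actb, Bnip3l and Tnfrsf1b replaced the names in the table. The first of 2 Il2 rows was used.

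The share above 0, the median in detected cells and the mean level above 12 were compared. Named genes were all those past 20 points or 1 cycle, the members of the 4 lists of activation and resting genes, and members of other lists above 0 in at least 10% of cells or 10 points apart; others are named for counts or beside a list. Members and lists were chosen with earlier results of these data known. A few of the measured genes enter the counts but are left unnamed. The 48 distal and 149 naive cells set the precision. Simulated data were used to check the share rule. Scripts ran in Python 3.11.15 with scipy 1.17.1 for intervals, numpy 2.4.6, and matplotlib 3.10.9 for plots.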

Additional observations from a re-analysis of the deposited data

How the results depend on the processing

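By share, a limit of 16 for detection gave 3 genes higher; 10 points gave 10 higher and 5 lower and 30 points 1 and 1. The earlier naive columns gave 3 higher, and the later distal columns 8 higher and 5 lower. By median, 2 cycles gave 3 higher and 1 lower; 5 detected cells gave 11 higher and 20 detected cells 0. With cells centred on the mean of Actb and Gapdh there were 14 higher medians with 1 lower, and with R18s in place of Gapdh 14 with 0. The earlier naive columns gave 8 higher and 1 lower, and the later naive, earlier distal and later distal columns 2 higher each. By mean level, no limit gave 16 higher and 10 lower, a limit of 14 gave 1 higher, and a limit of 16 gave 0 higher and 2 lower. The first centring made this 5 higher with 2 lower and the second 10 with 1; the earlier naive columns gave 2 lower and the later distal columns 6 higher. The cause was not tested, beyond fewer cells, fewer genes or another size in each setting. The share of distal cells nearer to naive ran from 45.8 to 66.7%. The highest value came from leaving out Myc, Il2ra, Klf2 and Il7r, which favours naive by construction. Of 300 differences in share recomputed for 50 genes, 296 stayed within the interval of the difference, 4 moved and 0 of the called ones changed sign. No paired analysis was possible because each population is 1 sample. The number of distal cells limits what can be seen: a gene in fewer than 6.25% of them could be missed.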

Other observations

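Rel, the gene of the NF-kappaB subunit c-Rel, belonged to none of the gene lists and was chosen after its values were seen. It was found in 7 of 48 distal cells (14.6%, interval 6.07 to 27.8%) and 1 of 149 naive cells (0.671%, 0.0170 to 3.68%), and the distal share was the highest of the 13 populations, next to 13.3% at day 3. That share was 8.33% in the earlier and 20.8% in the later distal columns, so the first rank rests on the later ones. Its partner Rela was found at similar shares in distal and naive cells. In the distal cells with Rel its values lay between 14.3 and 16.3.

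Of 94 genes, 6 were above 0 in distal cells and in no naive cell. Besides Irf4, Irf8, Bcl6, Hk2 and Id3 this was Bnip2, a gene of the Bcl-2 partner family, found in 1 of 48 cells. In the other direction 11 genes were found in naive and in no distal cell, and with 48 distal cells each such gene could still have a share of up to 6.25%. Gzmb had the highest naive share among them (7.38%), followed by Bcl11b (5.37%).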
